A study of Mus musculus with 2 samples.

Results

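The heat-shock proteins and co-chaperones described here were 10 genes, Hspa1a, Hspa1b, Hspa8, Hsph1, Hsp90aa1, Hsp90ab1, Dnajb1, Dnaja1, Hspb1 and Hsf1, chosen by symbol among the 47069 genes of the deposited count table. Hspa1a and Hspa1b share reads and were summed, so the 10 genes gave 9 values. Poly(A) RNA was sequenced from primary pituitary cells of randomly cycling female C57BL/6 mice aged 10 to 12 weeks. Collagenase and then pancreatine were used to dissociate the glands, and the labels call the storage of the cells immediate. They also mention washing and plating in M199 medium with serum, and do not give the time before storage. The headers of both count columns call the pituitary samples acute, and the study describes its bulk pituitary samples as acutely dissociated. A sample held the cells of 5 pituitaries, about 500000 to 700000 cells. One sample was stored in RNA-Best, a buffer made to stabilize RNA inside intact single cells, and the other in RNAlater, an established RNA stabilizer that served as the reference. The comparison asks whether the buffer alters the bulk profile of primary cells. Both groups consisted of 1 library of pooled animals, all of them had been through the same dissociation, and glands that had not been dissociated were not analysed here.

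Heat-shock proteins are molecular chaperones that bind unfolded or partly folded proteins, and their genes are among the fastest to be switched on by heat, oxidants, handling of cells and other insults to protein folding. HSP70 proteins hold and release their clients in cycles of ATP hydrolysis that J-domain proteins start and nucleotide exchange factors reset, and HSP90 proteins act later, on nearly folded clients such as steroid receptors and kinases. The transcription factor HSF1 is held inactive by chaperones in resting cells and, once freed, binds heat-shock elements, arrays of short inverted repeats in the promoters of these genes. In the pituitary, the steroid receptors that convey hormonal feedback are HSP90 clients.

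The libraries held 53915047 counts for RNA-Best and 44917492 for RNAlater, and with 1 library per group no difference has a replicate check. Intervals given below are 95% exact counting intervals, which cover counting error only. All 14 endocrine pituitary markers were found at a mean above 1 CPM, and prolactin (Prl) and growth hormone (Gh) ranked first and second by level per length in both libraries. The markers of endothelial cells, of pericytes and fibroblasts, of stem and folliculostellate cells and of the posterior lobe summed to lower levels in RNA-Best, and those of red cells to higher levels. Values are counts per 1000000 of the library total, CPM, and ratios are log2 of RNA-Best over RNAlater with 0.5 CPM added to each value, over the 16504 genes whose mean reached 1 CPM. In bulk RNA, fewer cells of a type and less RNA per cell cannot be told apart.

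The inducible HSP70 genes dominated the group. Hspa1a and Hspa1b, which encode nearly identical stress-induced HSP70 proteins, together stood at 9330.0 CPM with RNA-Best against 13708 CPM with RNAlater, or 0.933% and 1.37% of all counts. Only Prl and Gh had higher CPM than the pair in RNAlater; they and Pomc were named after their values were seen. In RNA-Best, Pomc, the corticotrope prohormone, at 9550.45 CPM, also stood above it, against 6843 CPM in RNAlater. The log2 ratio of the pair was -0.56 (-0.56 to -0.55), the lowest of the 9 values. RNAlater thus held 1.47 times the level of RNA-Best.

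The genes are single-exon neighbours on the minus strand of chromosome 17 in GRCm38, Hspa1b (ENSMUSG00000090877) at chr17:34956436-34959238 and Hspa1a (ENSMUSG00000091971) at chr17:34969190-34972156, with 9951 bases between them. Counted separately, Hspa1b stood at 5390.07 CPM with RNA-Best against 7928 CPM with RNAlater, and Hspa1a at 3939.9 CPM and 5781 CPM. Their log2 ratios were -0.56 and -0.55. Hspa1a took 42.2% of the summed counts in each library. Of the 51-base windows of Hspa1a, the length of a read, 66.1% also occurred in transcripts of other genes, and the share for Hspa1b was 62.0%. How reads that match both genes were divided is not stated, so the division between the genes is uncertain while their sum does not depend on it. The sum can still depend on reads that match genes outside the pair. Hspa1l shared 7.82% of the windows of Hspa1a and 6.65% of those of Hspa1b. The annotated gene Gm20481, which overlaps Hspa1a, had no counts.

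The promoters of the members were read for heat-shock elements, searched on both strands as 2 units (GAANNTTC or TTCNNGAA) or 3 units (GAANNTTCNNGAA or TTCNNGAANNTTC, which contain the shorter forms) in 300-base RefSeq windows on GRCm38.p6 from 250 bases before to 50 bases after the start. Windows were found for 6 members, Hspa1a, Hspa1b, Hspb1, Hsph1, Dnajb1 and Dnaja1. The 250 bases before the start are shown for the summed pair, which was the most abundant and had the lowest ratio, for Hspb1, and for Dnajb1, the member with the highest ratio. They lie at chr17:34972157-34972406 (minus strand, Hspa1a), chr17:34959239-34959488 (minus strand, Hspa1b), chr5:135887669-135887918 (plus strand, Hspb1) and chr8:83607925-83608174 (plus strand, Dnajb1). Capitals mark matches to the 2-unit element.
Hspa1a: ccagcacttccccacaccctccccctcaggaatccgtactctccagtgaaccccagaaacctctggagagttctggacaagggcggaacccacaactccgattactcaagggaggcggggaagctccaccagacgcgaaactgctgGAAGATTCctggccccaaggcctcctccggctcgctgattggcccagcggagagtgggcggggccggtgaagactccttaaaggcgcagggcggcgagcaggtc
Hspa1b: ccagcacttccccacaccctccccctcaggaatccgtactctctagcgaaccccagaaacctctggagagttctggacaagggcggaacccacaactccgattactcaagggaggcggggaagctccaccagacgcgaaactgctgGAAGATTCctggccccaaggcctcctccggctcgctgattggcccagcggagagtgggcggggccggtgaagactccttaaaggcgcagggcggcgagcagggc
Hspb1: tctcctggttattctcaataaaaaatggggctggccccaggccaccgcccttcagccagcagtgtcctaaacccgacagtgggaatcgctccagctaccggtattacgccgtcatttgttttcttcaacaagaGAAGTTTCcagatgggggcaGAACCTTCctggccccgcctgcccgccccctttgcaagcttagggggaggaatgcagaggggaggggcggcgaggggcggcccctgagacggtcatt
Dnajb1: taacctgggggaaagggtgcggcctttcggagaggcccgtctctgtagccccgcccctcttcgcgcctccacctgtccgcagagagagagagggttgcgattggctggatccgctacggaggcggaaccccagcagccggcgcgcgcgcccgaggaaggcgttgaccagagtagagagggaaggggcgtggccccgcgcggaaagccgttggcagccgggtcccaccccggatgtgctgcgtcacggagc

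The Hspa1a and Hspa1b stretches were identical at 247 of 250 bases, with the differences C44T, T47C and T249G, counted from 1 at the 5′ end of the stretch, Hspa1a base first. Each held 1 match to the 2-unit element, beginning 104 bases before the start. Hspb1 held 2, beginning 117 and 97 bases before the start. Neither Dnajb1 window had a match. Hsph1 was the single member with a 3-unit match, which lay after the start, and 1 of the 3 windows of Dnaja1 had a 2-unit match. In all, 5 of the 6 members with a window had a 2-unit match, against 17.0% of the 27025 genes in the table. Hspa1a and Hspa1b, with the same match in nearly identical stretches, count as 2 of the 5. Hspa8, Hsp90aa1, Hsp90ab1 and Hsf1 had no window. A 3-unit match was found in 1 of the 6, against 0.662% of genes. Of the 32851 windows, 15.1% held a 2-unit and 0.603% a 3-unit match. Among the 98 genes with a window in the chaperone lists and a list of genes known to be induced by HSF1, 26 had a 2-unit match and 5 a 3-unit match. The 5 were Chordc1, Dnajb6, Hspd1, Hspe1 and Hsph1, and their log2 ratios were -0.056, -0.19, -0.19, 0.25 and -0.40. Chordc1 and Dnajb6 were singled out after their values were seen. These genes therefore did not share one direction. A match describes letters in the window and is not a measured binding site.

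**Figure D1:**
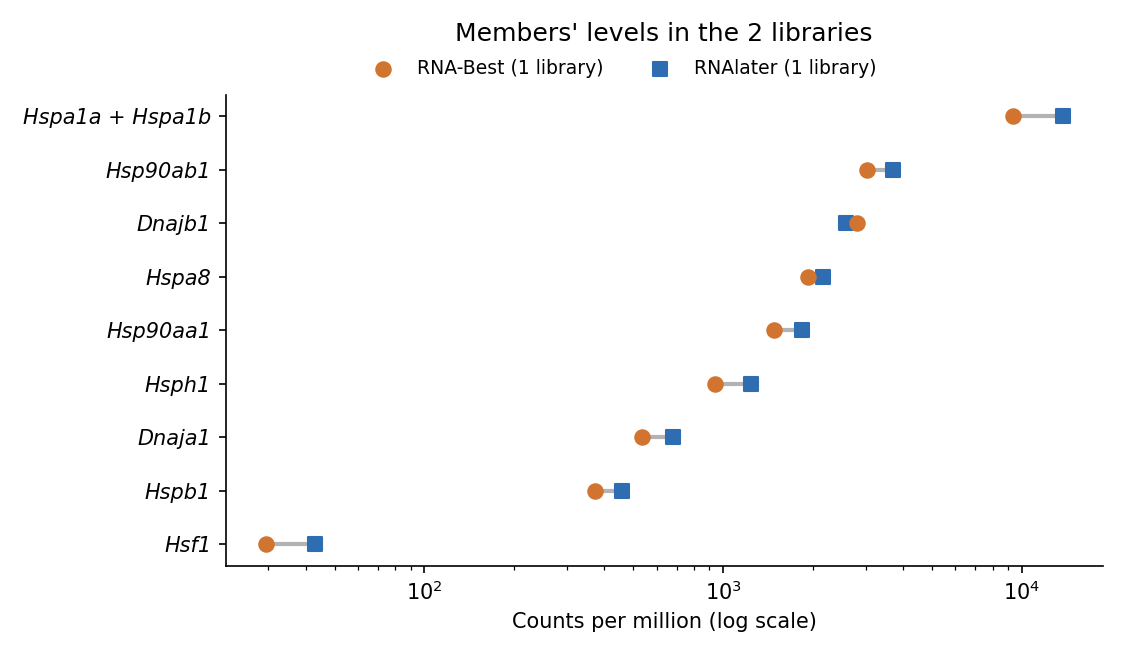
Levels of the 9 member values in CPM on a log axis, circles for the RNA-Best library and squares for the RNAlater library. Hspa1a and Hspa1b together lie highest, at 9330.0 and 13708 CPM, Hsf1 lies lowest, at 29.4 and 42.9 CPM, and only Dnajb1 has its circle to the right of its square.

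Hspa8 (ENSMUSG00000015656, chr9:40800984-40810087, plus strand) encodes HSC70, the HSP70 protein that all cells make without stress, which also strips clathrin from vesicles. It stood at 1932 CPM with RNA-Best against 2158 CPM with RNAlater, a log2 ratio of -0.16 (-0.17 to -0.15). That difference is close to the median of all genes, -0.18, and it changed sign to 0.013 with TMM scaling and 0.025 with DESeq2 size factors. Per length of the longest transcript, the Hspa1a and Hspa1b pair stood at 6.99 times Hspa8 in RNAlater and 5.31 times in RNA-Best. With the median annotated transcript length, which is shorter for Hspa8, these folds were 1.82 and 1.39. The change between libraries is the same for either length. Ratios between genes of the same library do not depend on how the libraries are scaled. By this measure the inducible genes were lower in RNA-Best relative to the constitutive gene by 0.40 on the log2 scale, with a counting SE of 0.0070.

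Hsph1 (ENSMUSG00000029657, chr5:149614287-149636376, minus strand) encodes HSP110, a large HSP70 relative that acts as its nucleotide exchange factor. No 51-base window of its transcript occurs elsewhere, and its counts were whole, 50684 in RNA-Best and 55680 in RNAlater. They correspond to 940.1 CPM and 1239.6 CPM, and the log2 ratio was -0.40 (-0.42 to -0.38). Hsph1 was thus lower in RNA-Best without any shared reads, and by less than the Hspa1a and Hspa1b pair. The pair stood at 16.5 times Hsph1 per length in RNA-Best and 18.4 times in RNAlater, and with median transcript lengths at 2.60 and 2.90 times.

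The cytosolic HSP90 genes had nearly equal ratios. Hsp90ab1 (ENSMUSG00000023944, chr17:45567775-45573271, minus strand), the form made constitutively, stood at 3029.65 CPM with RNA-Best against 3716 CPM with RNAlater, a log2 ratio of -0.29 (-0.30 to -0.28). Hsp90aa1 (ENSMUSG00000021270, chr12:110690605-110702728, minus strand), the form that stress induces further, stood at 1481 CPM and 1835 CPM, a log2 ratio of -0.31 (-0.32 to -0.29). Per length, Hsp90aa1 stood at 0.375 times Hsp90ab1 in RNA-Best and 0.379 times in RNAlater, and with median transcript lengths at 0.566 and 0.572 times. The inducible and the constitutive form therefore differed between libraries by 0.014 on the log2 scale relative to each other, with a counting SE of 0.0087, where the summed Hspa1a and Hspa1b and Hspa8 differed by 0.40. Scaled by the total count, the HSP90 proteins of other compartments lay nearer to equality, and their ratios were not computed with other scalings. Hsp90b1, which folds secreted proteins in the endoplasmic reticulum and was named after its values were seen, had a log2 ratio of -0.13, and Trap1 of mitochondria had -0.024.

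The J-domain genes lay on opposite sides of equal CPM. Dnajb1 (ENSMUSG00000005483, chr8:83608193-83612653, plus strand) encodes the main stress-induced J-domain partner of HSP70 and stood at 2803 CPM with RNA-Best against 2586 CPM with RNAlater. Its log2 ratio was 0.12 (0.11 to 0.13), and it was the single member with a higher CPM in RNA-Best. With TMM scaling the ratio was 0.29 and with DESeq2 size factors 0.30, whereas per length, a scale on which every log2 ratio is shifted by -0.28, it was -0.16. Dnaja1 (ENSMUSG00000028410, chr4:40722150-40737149, plus strand), a farnesylated J-domain partner of the constitutive HSP70, stood at 536 CPM and 679 CPM, a log2 ratio of -0.34 (-0.37 to -0.32). Its locus overlaps Smu1 on the other strand, and as the strand setting is not given, reads of the overlap cannot be told apart. Within a library, Dnajb1 stood per length at 9.82 times Dnaja1 in RNA-Best and 7.14 times in RNAlater, and with median transcript lengths at 1.56 and 1.13 times. Relative to Dnajb1, the summed Hspa1a and Hspa1b were lower in RNA-Best by 0.67 on the log2 scale, with a counting SE of 0.0063. The HSP70 pair and its inducible J-domain partner thus shifted in different proportions between the libraries, whatever the scaling.

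Hspb1 (ENSMUSG00000004951, chr5:135887919-135889563, plus strand) encodes HSP25, a small heat-shock protein that keeps unfolded proteins from aggregating without using ATP and also acts on actin. It stood at 372 CPM with RNA-Best against 460.2 CPM with RNAlater, a log2 ratio of -0.31 (-0.34 to -0.28). Hsf1 (ENSMUSG00000022556, chr15:76477422-76501913, plus strand), the regulator, had the lowest level, with whole counts of 1584 and 1926, or 29.4 CPM and 42.9 CPM. Its log2 ratio was -0.54 (-0.64 to -0.45), close to that of the Hspa1a and Hspa1b pair but with the widest counting interval of the group. The longest transcript annotated for Hsf1, of 3133 bases, is a single exon, so its spliced mRNA may be shorter. HSF1 is regulated mainly as a protein, so the level of its mRNA is not a measure of its activity.

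Of the 9 values, 8 were lower and 1 was higher in RNA-Best, and each interval excluded equal CPM. Over all genes tested the interval lay below equal CPM for 51.2% and above it for 20.2%. At a limit of 1.5-fold in CPM, 0 of the 9 values were lower and 0 were higher, where 18.8% of all genes were lower and 3.22% higher. With TMM scaling those shares of all genes were 11.5% and 7.32%. The Hspa1a and Hspa1b pair and Hsf1 came nearest to the limit, with RNAlater at 1.47 and 1.46 times RNA-Best. The median log2 ratio of the 9 values was -0.31 and that of all genes -0.18, and 7 of the 9 lay below the median of all genes. Hspa8 and Dnajb1 lay above it. The 10 genes together held 2.05% of all counts in RNA-Best and 2.64% in RNAlater, and the Hspa1a and Hspa1b pair made up 45.6% and 51.9% of that.

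**Figure D2:**
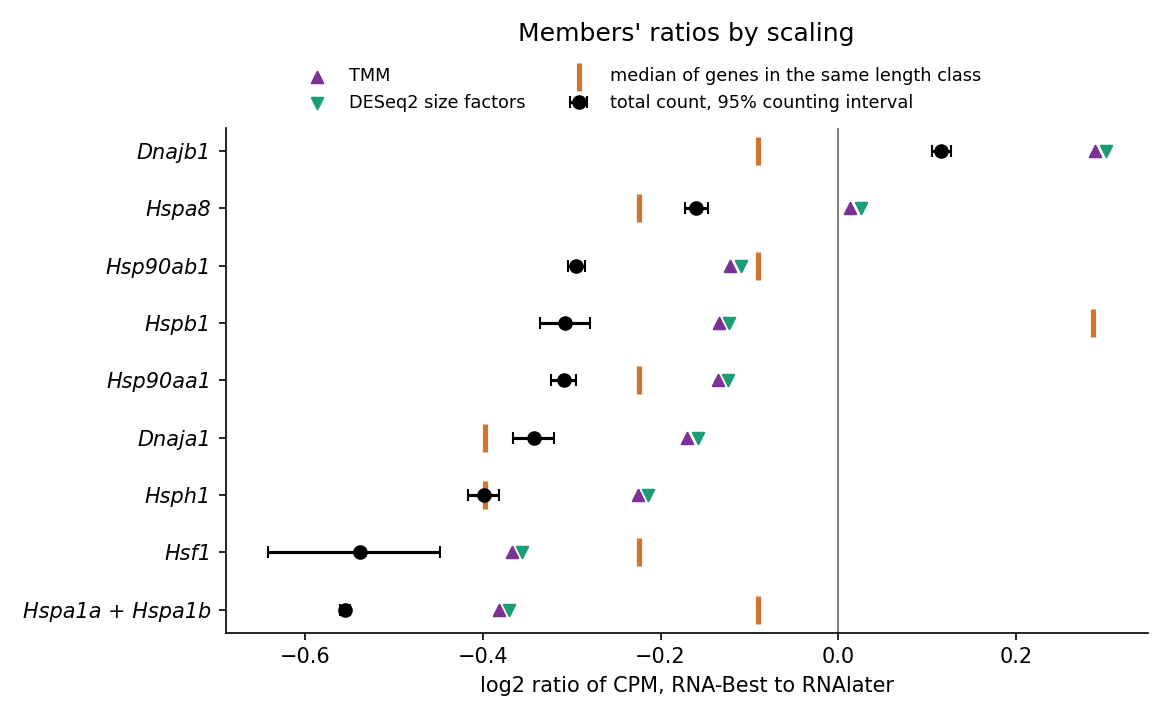
Log2 ratio of CPM in RNA-Best to RNAlater for each member value, scaled by the total count (circles, with 95% counting intervals), by TMM or by DESeq2 size factors (triangles), with the median of all genes of the same length class (bars). The Hspa1a and Hspa1b pair and Hsf1 stay lowest under each scaling, Hspa8 lies below 0 with the total count and just above it with TMM and DESeq2, and Dnajb1 stays above 0.

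Another scaling moves every ratio by nearly the same amount. Prl alone accounted for 23.6% of RNA-Best and 17.2% of RNAlater counts. TMM moved the median of all genes by 0.16, DESeq2 size factors by 0.17 and leaving Prl and Gh out of the totals by 0.12. The members' median minus that of all genes was -0.13 with the total count and between -0.13 and -0.12 under these 3 scalings, and 7 of 9 values stayed below that median in each. The number of values below equal CPM was 8 with the total count or without Prl and Gh and 7 with TMM or DESeq2, Hspa8 being the difference. Outside Prl and Gh, the Hspa1a and Hspa1b pair took 1.33% in RNA-Best and 1.78% in RNAlater.

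The ratio of all genes fell with transcript length, from a median of 0.29 for transcripts up to 1 kb to -0.90 for those over 10 kb. Each member was therefore read beside genes of its own length class. The Hspa1a and Hspa1b pair lay 0.46 below the median of its class of 2 to 3 kb, -0.090, and 7.84% of the 3111 genes of that class had a lower ratio. Hspb1, whose transcript of 930 bases is the shortest of the members, lay 0.59 below its class median of 0.29, and 6.12% of the 2093 genes there had a lower ratio. With these lengths and this filter they were the largest departures of the 9 values. Beside the 200 genes nearest in length, Hspb1 lay 0.48 below and the pair 0.44 below. With no filter on low values, Hspb1 lay 0.36 and the pair 0.49 below the class median. Hspb1 and Hsp90aa1 had equal ratios of -0.31, yet Hsp90aa1 lay only 0.084 below its own class.

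Hsf1 lay 0.31 below its class median and Hsp90ab1 0.20 below. Hsph1, with the third lowest ratio among the members, lay at the median of its class of 4 to 6 kb, where 49.9% of genes were lower. Dnaja1 and Hspa8 lay 0.055 and 0.065 above their class medians, and Dnajb1 lay 0.21 above, with 77.9% of its class lower. The median of the 9 departures was -0.084, and 6 of 9 were negative. With the median annotated transcript length, which is shorter for genes with many fragmentary transcripts, 8 of 9 were negative. Hspb1 then lay 0.30 below its class, the Hspa1a and Hspa1b pair 0.26, Hsph1 0.39 and Hsf1 0.40 below, and Dnajb1 lay 0.41 above. Dnaja1 and Hspa8 changed sides, to 0.34 and 0.15 below.

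**Figure D3:**
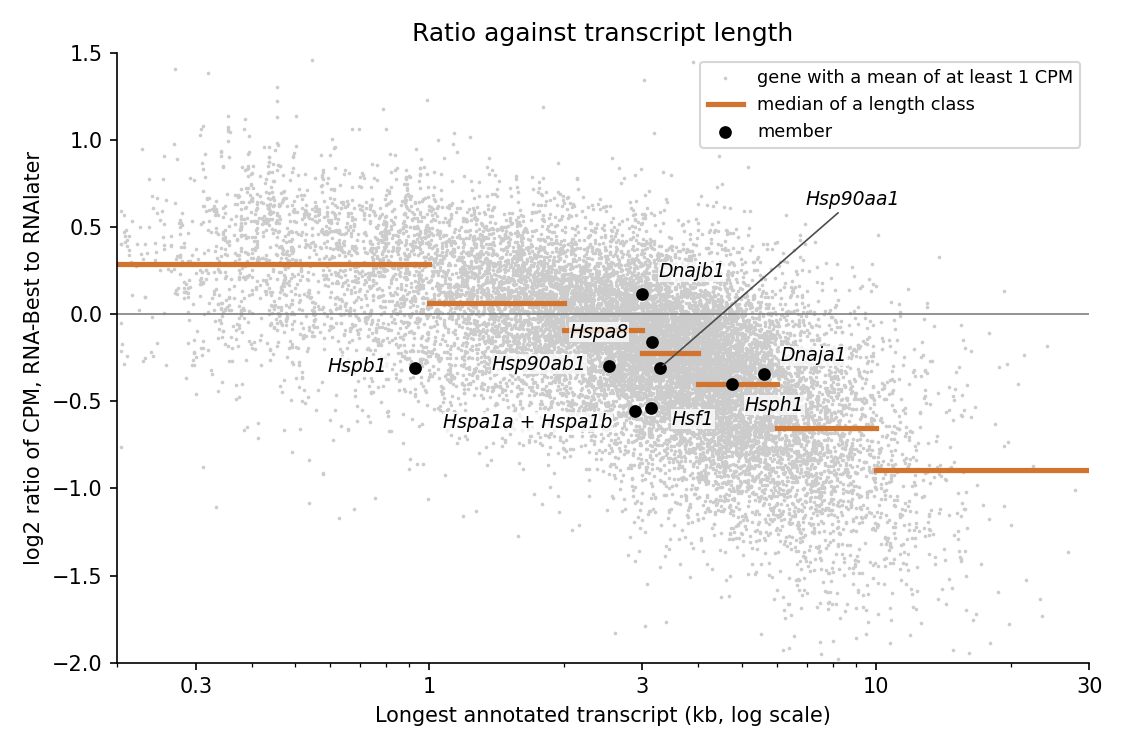
Log2 ratio of CPM in RNA-Best to RNAlater against the length of the longest annotated transcript on a log axis, for genes whose mean reached 1 CPM (grey; 126 outside the axes are not drawn), with length-class medians (bars) and members (black). Hspb1 and the Hspa1a and Hspa1b pair sit 0.59 and 0.46 below the median of their class, Hsph1 on it and Dnajb1 0.21 above it.

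Levels between members were compared per length, as TPM, the count per base of the longest transcript scaled to the same total in each library. In RNAlater the Hspa1a and Hspa1b pair led with 7521 TPM, followed by Hsp90ab1 with 2322, Dnajb1 with 1359, Hspa8 with 1076, Hsp90aa1 with 880.4, Hspb1 with 779, Hsph1 with 409.7, Dnaja1 with 190.3 and Hsf1 with 21.5 TPM. In RNA-Best the pair stood at 4226 TPM, and the order of the 9 was identical. Among all genes, the pair ranked 6 in RNAlater and 14 in RNA-Best by this measure, and Hsf1 ranked 4582 and 5583. The order depended on the length taken. With median transcript lengths Hsp90ab1 stood above the pair, at 4041 TPM against 3009 in RNA-Best and 5457 against 4868 in RNAlater.

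Several members have processed pseudogenes, intronless genomic copies of the mRNA, and the table assigned many reads to them. Of the 51-base windows, 58.3% of Hsp90aa1, 52.2% of Hspa8, 51.5% of Hspb1, 28.7% of Dnaja1, 4.25% of Hsp90ab1 and 0.373% of Dnajb1 also occurred in transcripts of other genes, and none of Hsph1 or Hsf1. Annotated pseudogenes that shared at least 20 windows held 47.1% of the summed counts of Hsp90aa1 and its copies in both libraries. For Hspa8 and its 9 pseudogenes the share was 44.3% in RNA-Best and 44.4% in RNAlater. For Dnaja1 it was 45.1% and 47.0%, for Hspb1 13.1% and 12.2%, and for Hsp90ab1 2.31% and 2.33%.

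The largest of these copies, named after their values were seen, were Gm12346 for Hsp90aa1, with 765 CPM with RNA-Best against 951 CPM with RNAlater, and Gm6210 for Hspa8, with 633 CPM and 705 CPM. Gm15542 for Dnaja1 held 211 CPM and 289 CPM, and Hsp25-ps1, a copy of Hspb1, held 55.9 CPM and 64.2 CPM. Dnaja1-ps, the single annotated gene named after a member, held 0.836 CPM and 0.664 CPM. Whether a read came from the member or from its copy cannot be told from these counts. The CPM of Hsp90aa1, Hspa8 and Dnaja1 may therefore understate their transcripts, and the shares held by pseudogenes are no firm upper limit. A gene outside these sums shared 44.2% of the windows of Hspa8, and another shared 43.2% of those of Hspb1.

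Added to its copies, Hspa8 stood at 3467 CPM and 3881 CPM, Hsp90aa1 at 2799 CPM and 3468 CPM, and Dnaja1 at 976 CPM and 1281 CPM. The log2 ratios were then -0.16, -0.31 and -0.39, so the ratio moved for Dnaja1 alone of these 3, from -0.34. The relations between members changed more than the ratios between libraries. Per length, the Hspa1a and Hspa1b pair stood at 3.89 times Hspa8 with its copies in RNAlater and 2.96 times in RNA-Best. Hsp90aa1 with its copies stood at 0.70 times Hsp90ab1 with its copies in RNAlater and 0.693 times in RNA-Best. In TPM, Hspa8 with its copies then reached 1935 and Hsp90aa1 1664 in RNAlater, both above the 1359 of Dnajb1. In RNA-Best, Hspa8 with its copies reached 1427 and stood above Dnajb1, at 1216, while Hsp90aa1 with its copies, at 1109, stood below it.

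**Figure D4:**
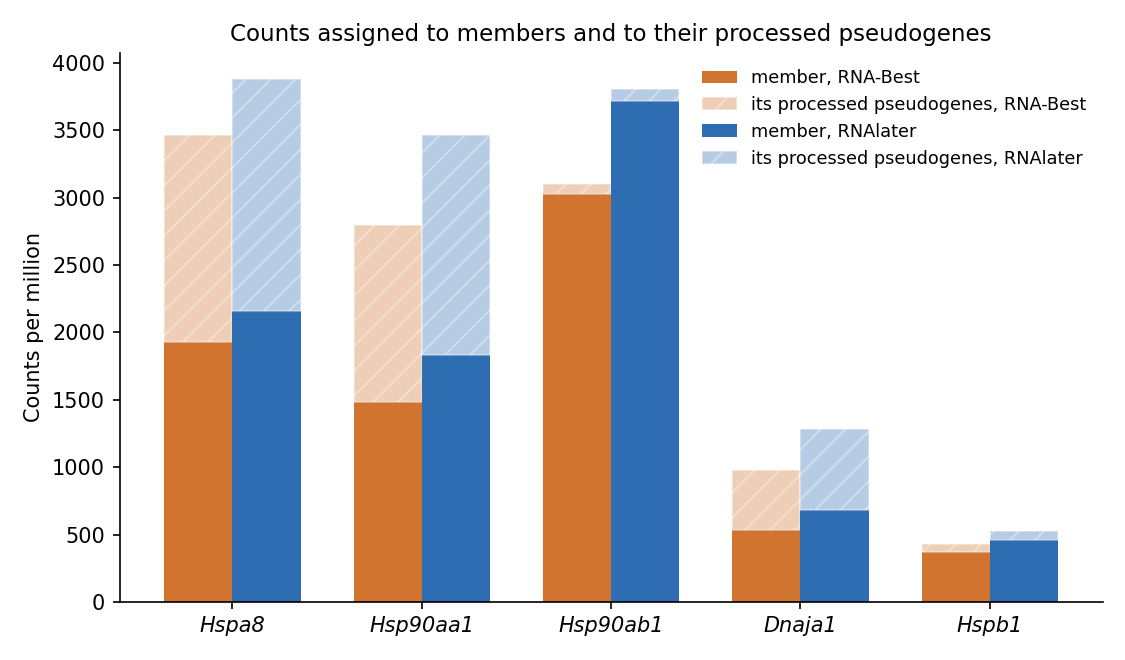
CPM assigned to 5 members (solid) and to the annotated pseudogenes that share at least 20 windows of 51 bases with them (hatched), stacked, in each library. The hatched share is 47.1% for Hsp90aa1 in both libraries and 44.3% and 44.4% for Hspa8, while for Hsp90ab1 it is 2.31% and 2.33%.

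The wider chaperone system was read through 9 lists, in which Hspa1a and Hspa1b were counted separately, with 107 genes whose mean reached 1 CPM. Of these, 6 were at least 1.5-fold lower in RNA-Best and 0 were higher, beside 18.8% and 3.22% of all genes, and the median was -0.084. In the HSP70 family 2 of 14 were at least 1.5-fold lower. The median was -0.37, while the median departure from the length classes was 0.038. The genes ran from Hspa12b, a distant relative, at -0.77 to Hspa1l, the testis form, at 0.029. Hspa5, the HSP70 protein of the endoplasmic reticulum, named after its values were seen, stood at 2859 CPM with RNA-Best against 3085 CPM with RNAlater, a log2 ratio of -0.11. The 4 HSP90 genes had a median of -0.21, with 0 past the limit either way, from Hsp90aa1 to Trap1.

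Among J-domain proteins of classes A and B, 0 of 14 passed the limit, and they ran from Dnajb14 at -0.50 to Dnajb9, a partner of HSP70 in the endoplasmic reticulum, at 0.13, with a median of -0.093. Among those of class C, 3 of 25 were at least 1.5-fold lower, with a median of -0.15. Dnajc13, which acts on endosomes, stood at 17.9 CPM with RNA-Best against 37.9 CPM with RNAlater, a log2 ratio of -1.06, and Dnajc15 of mitochondria had the highest ratio, 0.35. Dnajc13 has a transcript of 8012 bases and lay 0.41 below its length class. The small heat-shock proteins had 0 of 6 past the limit and a median of -0.10, from Cryab at -0.52, with 72.1 CPM and 104 CPM, to Hspb11 at 0.30. Cryab lay 0.59 below its length class, as Hspb1 did.

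The chaperonins, ring-shaped folding chambers, were the list with the highest median, 0.12, with 2 of 10 genes lower and 8 higher in RNA-Best and 0 past the limit. They ran from Hspd1, which forms the mitochondrial chamber, at -0.19 to Cct5, a subunit of the cytosolic one, at 0.48. Hspe1, the lid of the Hspd1 chamber, had 0.25. The HSP90 co-chaperones had a median of 0.0085, with 0 of 19 past the limit, from Unc45a, a myosin chaperone, at -0.45 to Pih1d1 at 0.33. Of the nucleotide exchange factors and HSP70 partners, 1 of 16 was at least 1.5-fold lower. That gene, Bag3, which links HSP70 to selective autophagy, stood at 202 CPM with RNA-Best against 316 CPM with RNAlater, a log2 ratio of -0.64, and lay 0.55 below its length class, while Hspbp1 was highest at 0.35 and the median was -0.14. The 4 heat-shock factors and regulators ran from Hsf1 to Hsbp1, an HSF1-binding protein, at 0.23, with 0 past the limit and a median of -0.20.

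The list of 23 genes known to be induced by HSF1 contains all members but Hsf1, with Hspa1a and Hspa1b counted separately. It had 2 genes at least 1.5-fold lower, among them Bag3, and 0 higher, beside 18.8% and 3.22% of all genes. Its median was -0.26, while its median departure from the length classes was 0.035. The highest was Hspe1. The 20 immediate-early genes, which respond to growth factors and handling within minutes, had a median of -0.59. They ran from Nr4a3 at -1.15 to Ier2 at -0.030. Of them, 10 were at least 1.5-fold lower and 0 higher, beside 18.8% and 3.22% of all genes. Their median departure from the length classes was -0.41. Fos stood at 2256 CPM with RNA-Best against 3213 CPM with RNAlater, a log2 ratio of -0.51, near that of the Hspa1a and Hspa1b pair, and Egr1 had -0.93.

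**Figure D5:**
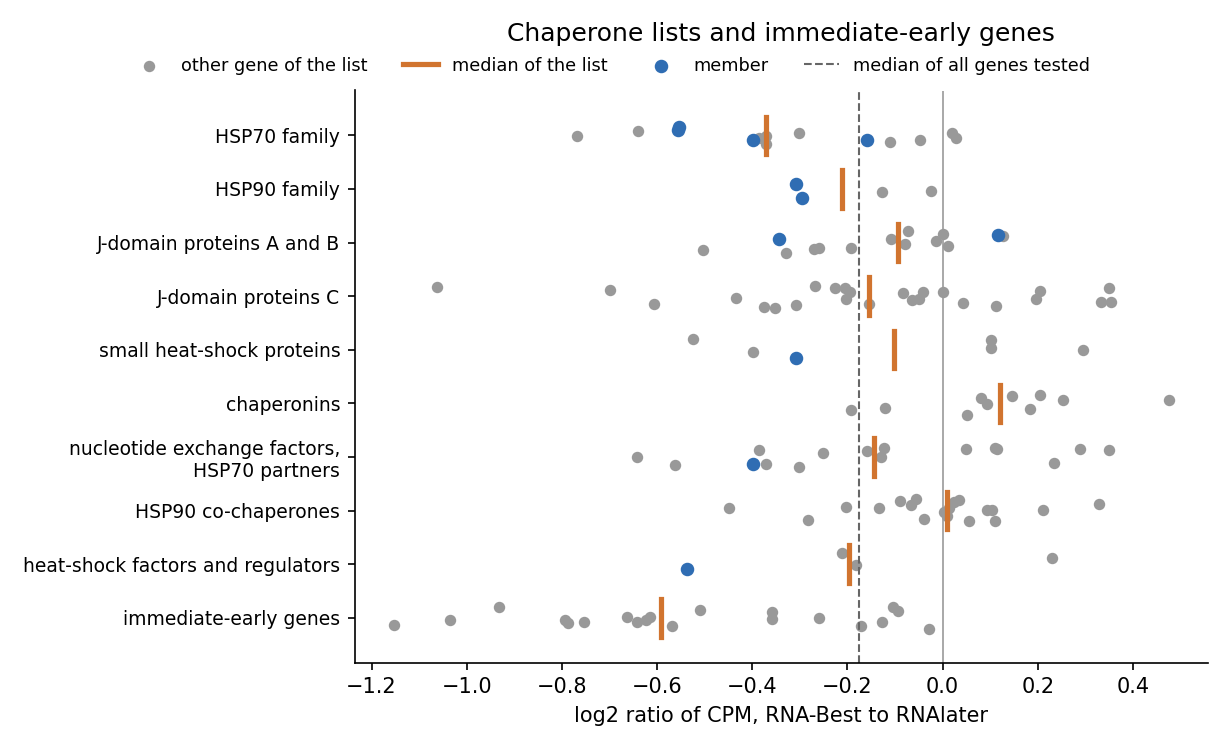
Log2 ratio of CPM in RNA-Best to RNAlater for each gene of 9 chaperone lists and of the immediate-early genes (points; members in blue), with list medians (bars) and the median of all genes, -0.18 (dashed). Genes in several lists are drawn in each, vertical spread within a list carries no value, and the list medians run from -0.59 for the immediate-early genes to 0.12 for the chaperonins.

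Markers of other cell types moved between the same libraries. Endothelial markers summed to 426 CPM with RNA-Best against 809.9 CPM with RNAlater, with 8 of 10 at least 1.5-fold lower and a range from Kdr at -1.63 to Egfl7 at 0.038. Those of pericytes and fibroblasts summed to 589.97 CPM and 801 CPM, with 7 of 10 at least 1.5-fold lower, from Pdgfra at -1.61 to Ogn at -0.16. The stem and folliculostellate markers summed to 349 CPM and 613 CPM, with 4 of 8 at least 1.5-fold lower and Cdh1 lowest at -1.12. The posterior lobe markers summed to 82.5 CPM and 161 CPM, with 4 of 6 at least 1.5-fold lower, from Nkx2-1 at -1.28 to Rax at -0.31. Macrophage markers summed to 448 CPM and 502 CPM, with 2 of 10 at least 1.5-fold lower, from Csf1r at -0.75 to C1qa at 0.56. Erythroid markers summed to 3200.39 CPM and 1129.6 CPM, with all 5 at least 1.5-fold higher, from Alas2 at 0.67 to Hbb-bt at 2.02. The endocrine markers summed to 314113 CPM and 246834 CPM, with 2 of 14 at least 1.5-fold higher and 0 at least 1.5-fold lower, from Ghrhr at -0.58 to Tshb at 0.73. Over all genes, 18.8% were at least 1.5-fold lower and 3.22% higher. The median departure from the length classes was -0.70 for endothelial, -0.49 for pericyte and fibroblast and -0.50 for stem and folliculostellate markers. It was -0.58 for posterior lobe, -0.0054 for macrophage, 0.76 for erythroid and -0.00090 for endocrine markers. No marker of these lists was at 0 in both libraries. The part of cell makeup in the members' ratios was not tested, and with 1 library per group the stabilizer, the pool of animals and the library preparation cannot be told apart.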

How the data were processed

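The authors deposited 1 table of estimated counts per gene, not normalized, with 1 column per library. Per the submitters' processing notes, STAR 2.5.1b, featureCounts 1.5.0-p1 and the mm10 build were used. Single reads came from TruSeq mRNA libraries of RNA extracted with an Agilent kit. The strand setting and the treatment of reads with several matches are not given in the sources used here. Only Hsph1 and Hsf1 among the members had whole counts in both libraries, so reads of the other members were divided with other features.

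Groups follow the stabilizer given in the labels. Gene names, coordinates (GRCm38) and transcript lengths came from GENCODE M21, where 46574 of 47069 identifiers (98.9%) matched with the version suffix ignored. Counts were scaled to CPM by column total, and 0.5 CPM was added before the log2 ratio, which understates the ratio of weakly expressed genes. TPM was computed here from the longest annotated transcript. The 95% intervals were exact conditional binomial (Clopper-Pearson) intervals of the counts rounded to whole numbers. Reads without molecular identifiers are not independent molecules, so they cover counting error only. With 1 library per group the linear model the study applied to replicated samples could not be fitted, and no p-value was computed. Scaling factors alone were taken from edgeR 4.0.16 (TMM) and from DESeq2 1.42.0, run under R 4.3.3. Python 3.11.15, numpy 2.4.6, scipy 1.17.1, pandas 2.3.3 and matplotlib 3.10.9 did the rest, and the ratio and interval code was tested on simulated data. Windows of 51 bases, the read length in the study's methods, were compared with all GENCODE M21 transcripts on both strands.

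The members and all gene lists were chosen with earlier results of these data known. Apart from the members, genes were named where they had the highest or lowest ratio of a list at a mean of at least 1 CPM, or where a chaperone-list gene averaging 10 CPM or more was at least 1.5-fold higher or 2-fold lower. Fos, Egr1 and pseudogenes named after a member were also named, and other names are marked as chosen after their values were seen. The lowest or highest gene of 2 lists is not reported here. Alternatives were other scalings, pseudocounts, low-value filters, transcript lengths and sums with pseudogenes. Protein sequences were not used here.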

Additional observations from a re-analysis of the deposited data

How the results depend on the processing

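With TMM, DESeq2 size factors and totals without the 2 most abundant genes, in that order, the log2 ratio was -0.38, -0.37 and -0.43 for Hspa1a and Hspa1b together, -0.37, -0.36 and -0.41 for Hsf1, -0.23, -0.21 and -0.27 for Hsph1, -0.17, -0.16 and -0.22 for Dnaja1, -0.14, -0.12 and -0.18 for Hsp90aa1, -0.13, -0.12 and -0.18 for Hspb1, -0.12, -0.11 and -0.17 for Hsp90ab1, and 0.29, 0.30 and 0.24 for Dnajb1. Hspa8 went from -0.16 to 0.013, 0.025 and -0.032, so its direction turned with TMM and DESeq2. The median of the members was -0.14, -0.12 and -0.18. Before the pseudocount is added, each scaling moves all genes by 1 constant. The number of values at least 1.5-fold lower stayed at 0 under every alternative in which it was counted. It was not counted per length, where every log2 ratio is shifted by -0.28. There the Hspa1a and Hspa1b pair, Hsf1, Hsph1 and Dnaja1 lay past 1.5-fold lower, at -0.83, -0.82, -0.68 and -0.62. The same shift applies to all genes, and the share of all genes past 1.5-fold lower on that scale was not counted. Hsp90aa1 lay barely past that limit, at -0.585, and Hspb1 barely short of it, at -0.584. Hsp90ab1, Hspa8 and Dnajb1 lay at -0.57, -0.44 and -0.16. Pseudocounts of 0.1 and 1 CPM moved no member beyond its counting interval. Summed with pseudogenes that share windows, an alternative chosen after seeing the data, Dnaja1 had -0.39; the cause was not tested. With genes of at least 10 CPM the median of the members lay -0.12 from that of all genes and with no filter on low values -0.25, and with no filter 11.6% of all genes were at least 1.5-fold lower. The median departure from genes of like length was -0.13 with no filter, -0.30 with median transcript lengths and -0.12 beside the 200 genes nearest in length. With median transcript lengths the Hspa1a and Hspa1b pair stood at 3009 TPM in RNA-Best and 4868 in RNAlater. No paired analysis was possible because the labels give 1 library for each stabilizer. Depth limits only Hsf1 noticeably, whose interval spans -0.64 to -0.45; the spread between replicate libraries is unknown.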
